A study of Mus musculus with 7 samples.

Results

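The galectins are a family of lectins, and the 6 genes described here are 5 of them (Lgals1, Lgals3, Lgals4, Lgals8 and Lgals9) with Lgals3bp, which encodes a galectin-binding glycoprotein and not a galectin. They were taken by gene name from a table of 54532 genes, and all 6 had a mean of at least 1 FPKM (fragments per kilobase of gene, scaled to the library's reads), as 11394 genes did. The study sequenced liver RNA of old C57BL/6 mice. Of its 7 libraries, 3 came from mice given a standard diet after supplementation with MDL-800 and 4 from control mice given a standard diet. MDL-800 activates SIRT6, a NAD-dependent deacetylase, and the labels give neither its dose and duration nor sex or exact age. The labels do not say whether each library came from its own animal, so errors and p-values cover the spread between these libraries only.

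Galectins bind beta-galactoside sugars through a conserved carbohydrate-recognition domain. They are made in the cytosol, leave the cell without a signal peptide, and cross-link glycoproteins on cell surfaces and in the matrix. Galectin-1 is a prototype galectin with 1 binding domain per chain and acts as a dimer, galectin-3 carries a flexible tail that lets it oligomerise, and galectin-4, galectin-8 and galectin-9 carry a pair of binding domains. In liver, galectin-1 is known from stellate cells, endothelium and lymphocytes, galectin-3 from Kupffer cells and other macrophages, and galectin-9 from Kupffer cells.

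RefSeq start-site windows of 300 bases (250 before to 50 after the start, build GRCm38.p6) matched 5 of the 6 genes, with none for Lgals1. Those of the steadiest gene, Lgals9 (chr11:78984875-78985174, minus strand), and of the most variable, Lgals3 (chr14:47373610-47373909, plus strand), are shown to be read against the levels described after them. The Lgals3 window lies at a RefSeq start inside the span that the table gives for the gene. Capitals mark matches to an interferon response motif, GAAA repeated after any 2 bases, searched on both strands. Both matches lie on the opposite strand and so read as TTTC repeats.
Lgals9: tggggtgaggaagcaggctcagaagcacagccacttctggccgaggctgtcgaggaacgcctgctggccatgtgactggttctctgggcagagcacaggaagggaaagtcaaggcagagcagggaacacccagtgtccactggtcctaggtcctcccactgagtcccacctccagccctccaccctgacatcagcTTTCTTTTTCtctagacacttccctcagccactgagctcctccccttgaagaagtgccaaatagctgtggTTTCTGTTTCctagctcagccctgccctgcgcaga
Lgals3: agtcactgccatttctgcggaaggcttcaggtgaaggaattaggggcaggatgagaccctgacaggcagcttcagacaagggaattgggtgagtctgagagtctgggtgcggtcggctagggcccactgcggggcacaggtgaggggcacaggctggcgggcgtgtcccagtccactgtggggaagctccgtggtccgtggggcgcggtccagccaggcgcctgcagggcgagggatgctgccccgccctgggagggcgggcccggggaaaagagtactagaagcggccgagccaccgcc
The Lgals9 window held 2 matches, the first base of one 55 bases before the start and of the other at position 16 after it. None of the other 4 windows held one, and 3.44% of 32851 windows of this length did. The STAT5 motif TTCNNNGAA, found in 8.30% of windows, and the motif TATAAA, found in 13.6%, were in none of the 5, and the 2 matches did not overlap.

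Lgals1 and Lgals3 stood out for different reasons across the 7 libraries. Lgals1 was higher in all 3 MDL-800 libraries than in any control, whereas the other 5 genes overlapped between the groups. Lgals3 varied most, and its 2 lowest values came from the only libraries with reads of Y-linked genes, control 1 and MDL-800 2. Earlier results on these same libraries had singled Lgals1 out for its difference between the groups. That difference is therefore a description, and p-values of this contrast support nothing here.

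Library-wide properties bear on these values. Whole reads recovered from the deposited values summed to 17600066 to 19920469 per library, and without molecular identifiers limits from reads cover counting error only. These sums differed from the read total implied by the FPKM scale. They were 1.28 and 1.25 times that total in MDL-800 2 and control 1, and 0.995 to 1.24 times elsewhere. Control 1 and MDL-800 2 held 2173 and 3514 reads of Ddx3y, Kdm5d, Eif2s3y and Uty, which lie on the Y chromosome, and the other 5 libraries held 0. The first principal component, with 49.6% of the variance of tested genes, placed those 2 libraries apart from the rest. Xist, the X-inactivation RNA, was at 49.98 to 63.5 FPKM in 4 of the other 5 but at 0 FPKM in control 3, which thus held neither transcript type. Control 2 had the highest summed macrophage, monocyte, neutrophil and erythroid markers, the last at 807.4 FPKM against 126.1 to 198.4 FPKM elsewhere. Among erythroid markers the haemoglobin genes were highest there, but Alas2 was highest in MDL-800 2 and control 1. The control 2 sums of B and plasma cell markers and of T and NK cell markers lay within the range of the other libraries. Hepatocyte markers, Alb among them, summed to 82127 FPKM in control 4, 65578 FPKM in control 3 and 54140 to 57012 FPKM elsewhere. Alb made up most of each sum, at 62511 FPKM in control 4. The 10 genes with the most reads held 23.7% of reads in control 4 and 17.8% to 20.5% elsewhere.

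**Figure D1:**
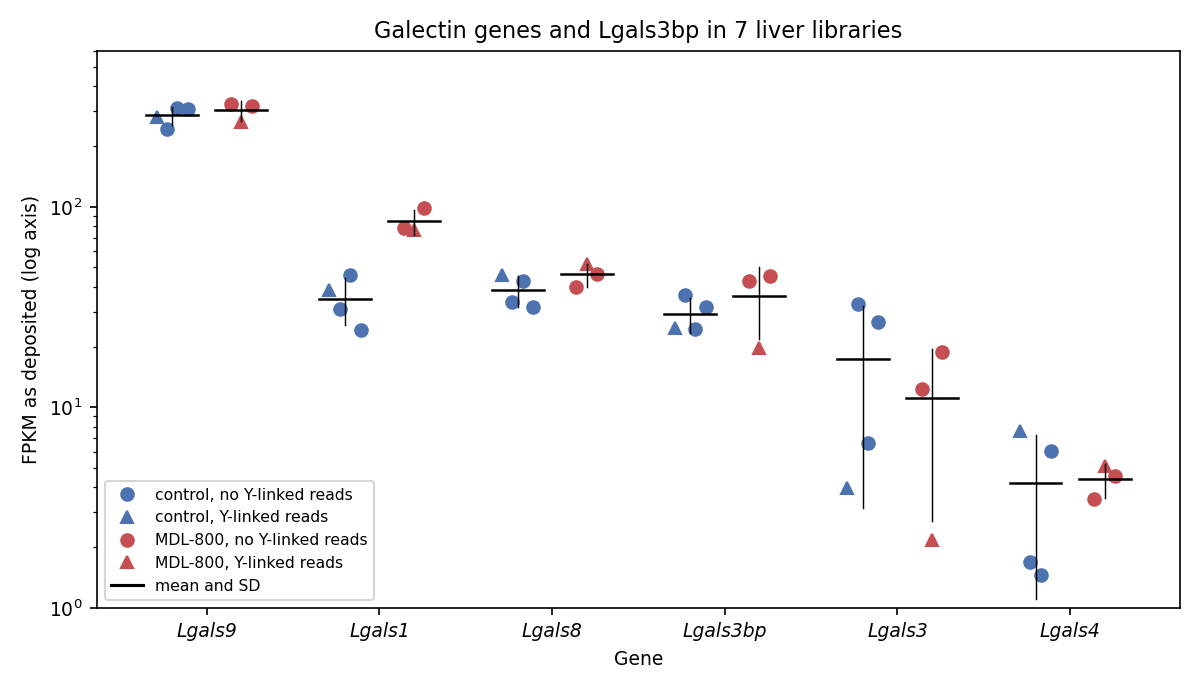
Deposited FPKM (log axis) of the 6 genes, ordered by mean, in 4 control (blue) and 3 MDL-800 (red) libraries; triangles are the 2 libraries with Y-linked reads, and bars are group means with SD. Lgals1 is at 76.8 FPKM or more in MDL-800 and at 45.5 FPKM or less in control, and the triangles are the lowest points of Lgals3.

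Lgals1 (chromosome 15, 78926725 to 78930465, plus strand, GRCm38, 5 merged exon blocks of 903 bases) was at 78.2, 76.8 and 98.7 FPKM in MDL-800 1, 2 and 3. In control 1, 2, 3 and 4 it was at 38.5, 31.1, 45.5 and 24.2 FPKM. Every MDL-800 library thus lay above every control, with control 3 the nearest control and control 4 the lowest. The MDL-800 mean of 84.6 ± 12.3 FPKM (SD, n = 3) was 2.43 times the control mean of 34.8 ± 9.22 FPKM (SD, n = 4). On the log2(FPKM + 1) scale the limma difference was 1.28 (standard error 0.23, 95% interval 0.75 to 1.82), with an adjusted p of 0.950 over 11394 genes. The values rested on 322 to 1565 reads per library. The 2 processed pseudogenes that carry its name, Lgals1-ps1 and Lgals1-ps2, held 0 reads in all 7 libraries. That allows up to 0.576 and 0.408 FPKM at a limit of 3 reads, for reads assigned to them only. All 519 bases of Lgals1-ps2 lie within Gm49486 on the same strand, which reached at most 0.0799 FPKM. How reads matching more than 1 gene were assigned is not given.

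Of the 6 genes, 0 passed limma at an adjusted p under 0.05, as did 0% of all tested genes. Lgals1 alone of the 6 was past an unadjusted limma threshold of 0.05, as were 4.85% of tested genes (3.23% higher in MDL-800). It alone had groups that did not overlap, as had 6.45% of tested genes (4.03% higher in MDL-800). Ordered from the most positive difference to the most negative, it was number 22 of the 11394 genes. Since Lgals1 was chosen on this contrast, nothing is read from these shares.

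The make-up of galectin transcripts differed between the groups along with Lgals1. Among the 5 galectins, whose FPKM values are per length and can be summed, Lgals1 made up 17.0%, 19.2% and 20.3% in MDL-800 1, 2 and 3. Its share was 10.3%, 9.04%, 11.2% and 6.12% in control 1 to 4, so the groups did not overlap. Lgals9 made up 67.4% ± 3.04 (SD, n = 3) against 74.9% ± 2.81 (SD, n = 4) in control, with the highest MDL-800 share (70.9%) just below the lowest control share (71.2%). A larger share of Lgals1 leaves less for the others, so the Lgals9 share is no separate change. The summed FPKM of the 5 overlapped between the groups, at 400.0 to 486.0 in MDL-800 and 343.8 to 407.2 in control.

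**Figure D2:**
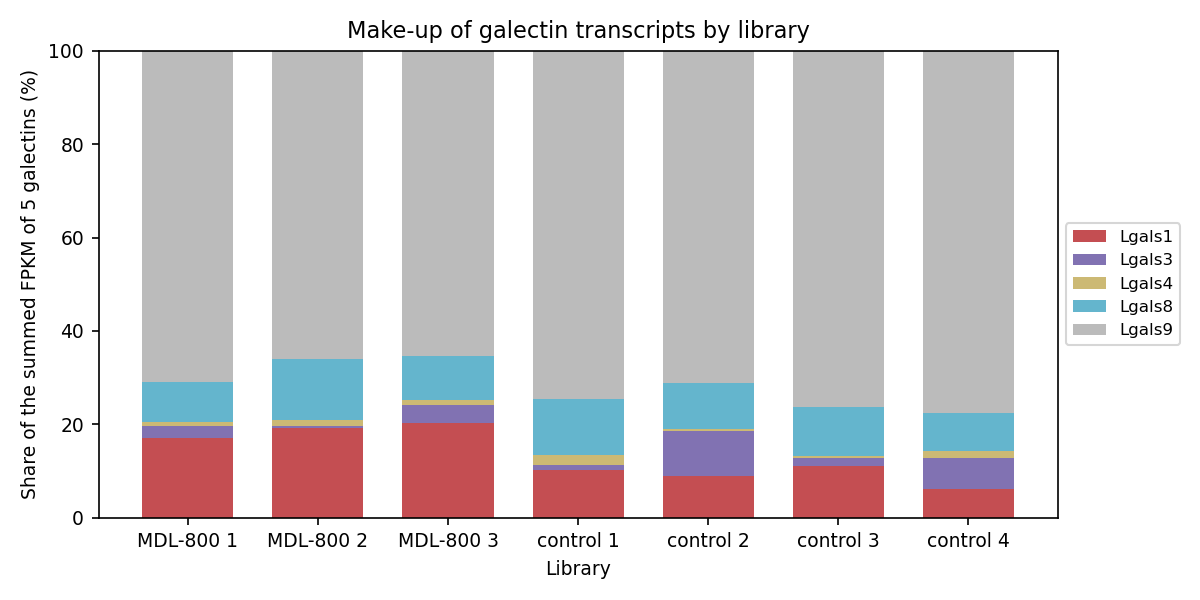
Share (%) of each of 5 galectins in their summed deposited FPKM, 1 bar per library. Lgals9 is the largest part of every bar, and Lgals1 takes 17.0% to 20.3% in MDL-800 and 6.12% to 11.2% in control.

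Set against each other galectin within a library, a measure free of the library's scaling, Lgals1 separated the groups for some partners only. The ratio of Lgals1 to Lgals8 was 1.96, 1.48 and 2.13 in MDL-800 1, 2 and 3 and 0.846, 0.927, 1.07 and 0.766 in control 1 to 4. The ratio to Lgals9 was 0.240 to 0.311 in MDL-800 and 0.0789 to 0.146 in control, again with no overlap. Against Lgals3 and Lgals4 the ratios overlapped, at 5.24 to 35.2 and 15.0 to 22.5 in MDL-800 and 0.913 to 9.69 and 3.99 to 31.1 in control. Lgals3 was spread widely within both groups, and Lgals4 within control. The log2(FPKM + 1) of Lgals1 minus the mean of the other 4 galectins was 1.41, 1.77 and 1.48 in MDL-800 and 0.53, 0.11, 1.05 and -0.57 in control 1 to 4. The group means of that measure were 1.55 ± 0.19 (SD, n = 3) and 0.28 ± 0.68 (SD, n = 4), a difference of 1.27 with no test.

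The order of levels was headed by Lgals9 in all 7 libraries, and Lgals1 moved within it. Lgals1 came next after Lgals9 in the 3 MDL-800 libraries and control 3. It came after Lgals8 in control 1, and after both Lgals8 and Lgals3 in control 2 and control 4. In control, Lgals1 (34.8 ± 9.22 FPKM, SD, n = 4) and its neighbour in the order, Lgals8 (38.3 ± 6.78 FPKM, SD, n = 4), differed by less than their spread.

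Lgals9, which encodes galectin-9, a tandem-repeat galectin known to be induced by interferon, was the most abundant of the 6 and the steadiest. It lies at chromosome 11, 78962974 to 78984946, on the minus strand. Its level was 326.1, 264.0 and 317.6 FPKM in MDL-800 1, 2 and 3 and 279.2, 244.7, 311.0 and 306.6 FPKM in control 1 to 4. The highest value exceeded the lowest 1.33 times, and the groups overlapped. The log2 difference was 0.08 (95% interval -0.27 to 0.44), which leaves room for a fold between 0.827 and 1.36 on the log2(FPKM + 1) scale.

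Lgals8 encodes galectin-8, a tandem-repeat galectin that marks damaged endosomes for autophagy. The gene lies at chromosome 13, 12439415 to 12464944, on the minus strand. It was at 39.8, 51.9 and 46.3 FPKM in MDL-800 1, 2 and 3 and 45.5, 33.5, 42.6 and 31.6 FPKM in control 1 to 4. The groups overlapped, and the log2 difference was 0.27 (95% interval -0.14 to 0.68). Of its exonic sequence, 875 bases lie within the span of Heatr1 on the opposite strand. The library chemistry does not mark strand, so reads there could belong to either gene, although Heatr1 itself reached at most 3.90 FPKM.

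Lgals4 encodes galectin-4, best known from gut epithelium, and was the lowest of the 6 by mean. The gene lies at chromosome 7, 28833854 to 28841708, on the plus strand. Its values were 3.48, 5.12 and 4.53 FPKM in MDL-800 1, 2 and 3 and 7.59, 1.69, 1.46 and 6.06 FPKM in control 1 to 4. The controls enclosed the MDL-800 libraries, with control 1 and control 4 above and control 2 and control 3 below all 3. Reads numbered 48 to 255, and the log2 difference was 0.25 (95% interval -0.88 to 1.38), or -0.036 without control 3. Of the 6 intestinal markers, Cdx2 was at 0 in all 7 libraries and Vil1, Cdh17 and Muc2 were at most 0.227 FPKM. Tff3, a goblet cell peptide gene, was at 0.143 to 6.33 FPKM, and its 3 highest values came from control 4, MDL-800 2 and control 1, the libraries with the most Lgals4. The other markers did not share that order. Vil1 and Cdh17 were at 0 in control 1, the library with the most Lgals4, and highest in control 4 (0.134 and 0.227 FPKM). Fabp2, a fatty acid binding protein gene also transcribed in liver, was at 45.9 to 160.9 FPKM. It was at 160.9 FPKM in MDL-800 2 and 121.3 FPKM in control 1, but at 49.9 FPKM in control 4. The part of gut epithelium in the Lgals4 values was not tested.

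Lgals3bp encodes a secreted scavenger-receptor domain glycoprotein that binds galectin-3 and is known to be induced by interferon. The gene lies at chromosome 11, 118392751 to 118402092, on the minus strand. It was at 42.7, 19.8 and 45.1 FPKM in MDL-800 1, 2 and 3 and 24.8, 36.4, 24.6 and 31.5 FPKM in control 1 to 4. MDL-800 2 was the lowest of all 7 and the other 2 MDL-800 libraries the highest, so the groups overlapped. The log2 difference was 0.21 (95% interval -0.51 to 0.94), or 0.0099 without MDL-800 3 and 0.59 without MDL-800 2.

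Lgals3 encodes galectin-3, the chimera galectin of macrophages that is used as a marker of activated Kupffer cells and recruited monocytes. The gene lies at chromosome 14, 47367751 to 47386160, on the plus strand. It was at 12.3, 2.18 and 18.8 FPKM in MDL-800 1, 2 and 3 and 3.97, 32.8, 6.65 and 26.5 FPKM in control 1 to 4. The highest value was 15.0 times the lowest, and the group means were 11.1 ± 8.39 FPKM for MDL-800 and 17.5 ± 14.3 FPKM for control (SD, n = 3 and 4), with wide overlap. The log2 difference between groups was -0.54 with a 95% interval from -2.63 to 1.54, so neither direction was distinguishable at this spread, and without MDL-800 2 the difference was 0.24.

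**Figure D3:**
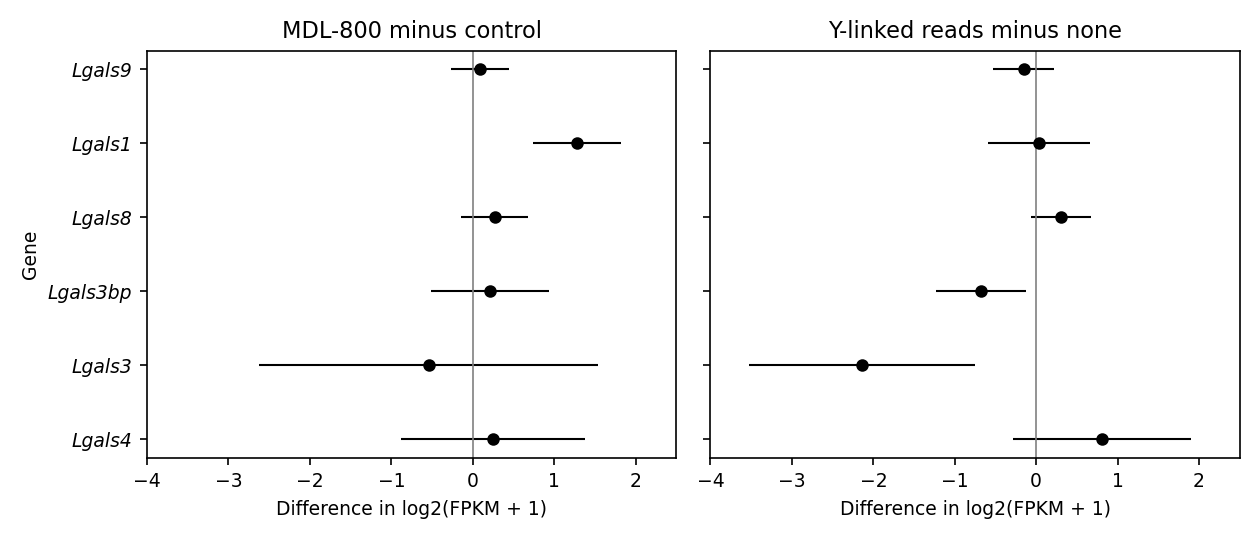
Difference in log2(FPKM + 1) with 95% limma intervals for MDL-800 minus control (left) and for the 2 libraries with Y-linked reads minus the other 5, in a model that also holds treatment (right). Lgals1 is at 1.28 on the left and 0.03 on the right, and Lgals3 is at -0.54 and -2.14.

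The contrast of the 2 libraries with Y-linked reads against the other 5, fitted with treatment as a second term, had no part in choosing the genes. In it 276 of 11394 genes passed limma at an adjusted p under 0.05, or 2.42%, and 0 of the 6 did. Unadjusted, 22.7% of tested genes were past 0.05 (8.85% lower with Y-linked reads), and Lgals3 and Lgals3bp were the 2 of the 6 that were, both lower. The Lgals3 difference was -2.14 (standard error 0.58, 95% interval -3.53 to -0.75, limma adjusted p = 0.112). Without control 3 it was -2.48 (limma adjusted p = 0.00728), in a fit where 418 of 11390 genes passed. Leaving out MDL-800 1, MDL-800 3, control 2 or control 4 instead gave limma adjusted p from 0.125 to 0.250 for Lgals3. Lgals3 was at 2.18 and 3.97 FPKM in the libraries with Y-linked reads and at 6.65 to 32.8 FPKM in the other 5, without overlap, as for 32.8% of tested genes (12.8% lower with Y-linked reads). Lgals3bp had a difference of -0.67 (95% interval -1.23 to -0.12, limma adjusted p = 0.170), and its values just overlapped, with 24.8 FPKM in control 1 and 24.6 FPKM in control 3. That difference was -0.28 without MDL-800 2 (limma adjusted p = 0.646) and -1.11 without control 1 (limma adjusted p = 0.345).

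Lgals1 showed no such split. Its difference for Y-linked reads was 0.03 (95% interval -0.59 to 0.66, limma adjusted p = 0.952), and it lay below 0 with quantile normalization (-0.13), summed reads as the denominator (-0.15) and voom (-0.18). Within the 5 libraries without Y-linked reads, the MDL-800 minus control difference of Lgals1 was 1.41, and with the Y term in the model it was 1.28. The library pair with Y-linked reads held 76.8 FPKM in MDL-800 2 and 38.5 FPKM in control 1. Lgals4 and Lgals8 had differences of 0.80 and 0.31 and Lgals9 -0.15 for Y-linked reads, none of which passed (limma adjusted p from 0.280 to 0.584). With summed reads as the denominator these were 0.63, 0.12 and -0.34.

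Summed macrophage markers were highest and lowest in the same libraries as Lgals3. Of the single markers, Marco was highest in MDL-800 2 (31.5 FPKM) and Timd4 in control 4 (9.18 FPKM), and the others in control 2. In bulk liver, fewer cells of a type and less RNA per cell cannot be told apart. The summed FPKM of 10 Kupffer cell and macrophage markers was 2230 in control 2, where Lgals3 was highest, and 231.2 and 258.0 in MDL-800 2 and control 1, where it was lowest. Control 3 was next lowest in both, at 481.1 summed FPKM. The 3 remaining libraries had close marker sums of 762.2 to 843.6 FPKM, but Lgals3 between 12.3 and 26.5 FPKM. Of the 10 markers, 9 had a difference below 0 for Y-linked reads with a median of -1.80, and 9 were below 0 for MDL-800 with a median of -0.41. Monocyte markers were below 0 in 4 of 5 for MDL-800 and in 5 of 5 for Y-linked reads, and neutrophil markers in 4 of 4 for both. The monocyte markers Lyz2 (-2.06, limma adjusted p = 0.0493) and Plac8 (-1.66, limma adjusted p = 0.0499) passed for Y-linked reads, as did 2.42% of tested genes. Summed monocyte markers were at 67.0 to 75.4 FPKM with Y-linked reads and 196.6 to 507.0 FPKM without, and no marker of these 3 lists was at 0 in all 7 libraries. Lower markers with Y-linked reads were not limited to these cells: 7 of 8 sinusoidal endothelial, 8 of 10 stellate cell and fibroblast, 6 of 6 B and plasma cell, 2 of 2 T and NK cell and 3 of 3 cholangiocyte markers were below 0, and 7 of 8 hepatocyte markers above 0. Among erythroid markers Alas2 was higher with Y-linked reads (3.06, limma adjusted p = 0.0205). The share of all tested genes below 0 for Y-linked reads was not computed, so these counts have no background beside them. The part of any of these cell types in the Lgals3 values was not tested.

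Stellate cell and fibroblast markers, from cells known to express Lgals1, were 8 above and 2 below 0 in MDL-800 against control, with a median of 0.19 and none past the test. Their summed FPKM was 118.9, 89.9 and 131.1 in MDL-800 1, 2 and 3 and 91.3, 100.3, 105.5 and 40.0 in control 1 to 4, so the groups overlapped. MDL-800 2 had a lower marker sum than control 1, control 2 and control 3 but more Lgals1 than any of them. Control 4 was lowest in both, and without it the Lgals1 difference was 1.13. Its hepatocyte marker sum was the highest (82127 FPKM), but most of that was Alb (62511 FPKM). Apart from Alb and Apoa1, each hepatocyte marker was higher in another library, as Hnf4a was in control 3 (174.3 against 134.3 FPKM). Sinusoidal endothelial markers were 6 above and 2 below 0, at 34.2 to 48.8 summed FPKM in MDL-800 and 19.2 to 53.9 in control. Among them the groups did not overlap for Clec4g, as for 6.45% of all tested genes. It was at 13.1 to 14.7 FPKM in MDL-800 and 2.40 (control 4) to 12.6 FPKM in control (difference 0.64, limma adjusted p = 0.950). T and NK cell markers, above 0 in 2 of 2 tested, summed to 3.54 to 14.3 FPKM in MDL-800 and 4.88 to 11.8 FPKM in control. The part of these cell types in the Lgals1 difference was not tested.

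**Figure D4:**
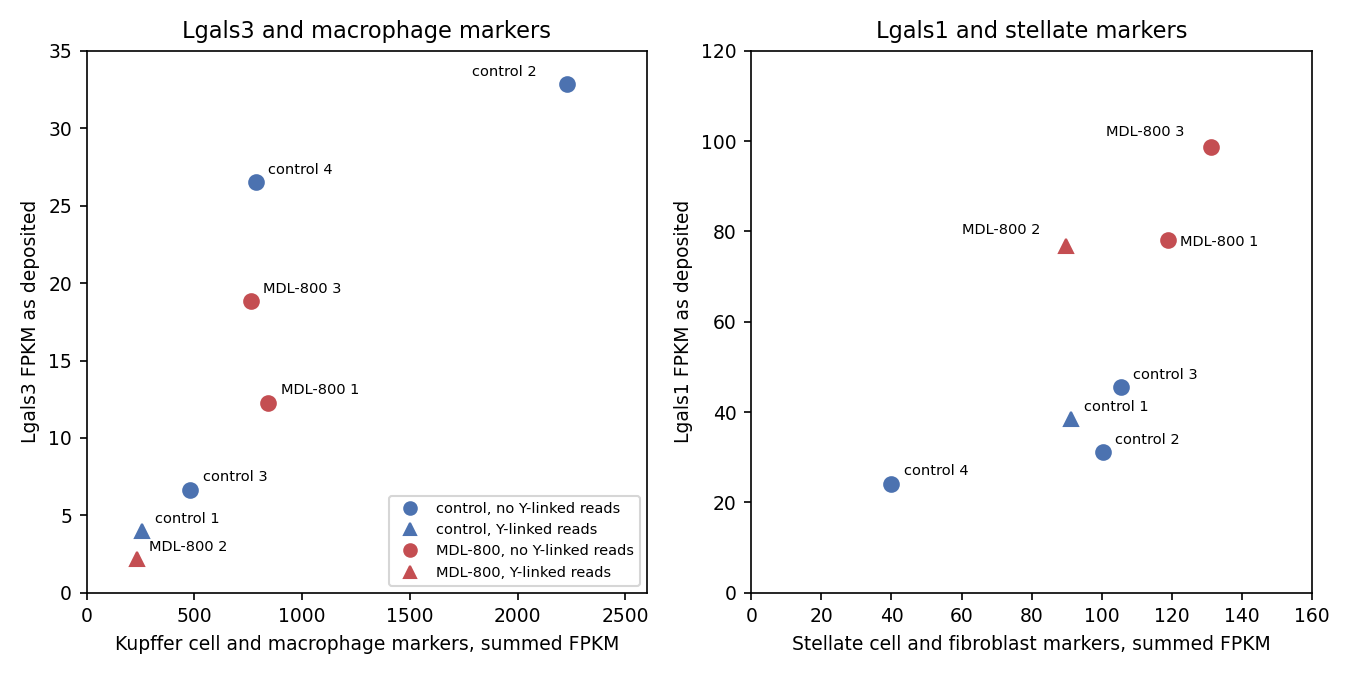
Left, Lgals3 against the summed FPKM of 10 macrophage markers; right, Lgals1 against the summed FPKM of 10 stellate cell and fibroblast markers, 1 point per library (colours and shapes as in the left key). Lgals3 is lowest where the macrophage sum is lowest, and the 3 MDL-800 libraries lie above all 4 controls in Lgals1 while the stellate marker sums overlap.

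The remaining marker lists overlapped between the groups in summed FPKM. B and plasma cell markers were below 0 in 6 of 6 tested (median -0.78), and cholangiocyte markers above 0 in 2 of 3 (median 0.48). Hepatocyte markers were above 0 in 3 of 8 and erythroid markers in 2 of 5. The groups did not overlap for the erythroid gene Hba-a1, as for 6.45% of all tested genes. It was at 73.0 to 77.5 FPKM in MDL-800 and 89.0 to 544.3 FPKM in control (difference -0.95, limma adjusted p = 0.950). In the intestinal list Fabp2 and Tff3 were tested and had differences of 1.09 and -0.28. Smooth muscle, pancreas and adipocyte lists had 1 tested gene each (-0.19, -0.19 and 0.22), and the mesothelial list had 0. No marker of any list passed limma between MDL-800 and control.

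The genes next to Lgals1 showed no like difference. Of 9 other protein-coding genes within 100 kb, 5 were tested, 2 above and 3 below 0, with differences from -0.20 to 0.11 and groups that overlapped for all 5. Nol12, which encodes a nucleolar protein and starts 4468 bases after the end of Lgals1, had means of 3.23 ± 0.451 FPKM for MDL-800 and 3.84 ± 0.358 FPKM for control (SD, n = 3 and 4). H1f0, which encodes a linker histone, was at 100.2 ± 18.2 and 106.5 ± 22.3 FPKM (SD, n = 3 and 4). The differences of Gga1, Triobp and Cdc42ep1 were -0.15, 0.07 and 0.11. Lgals2, another galectin gene in this stretch, lay under the minimum.

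**Figure D5:**
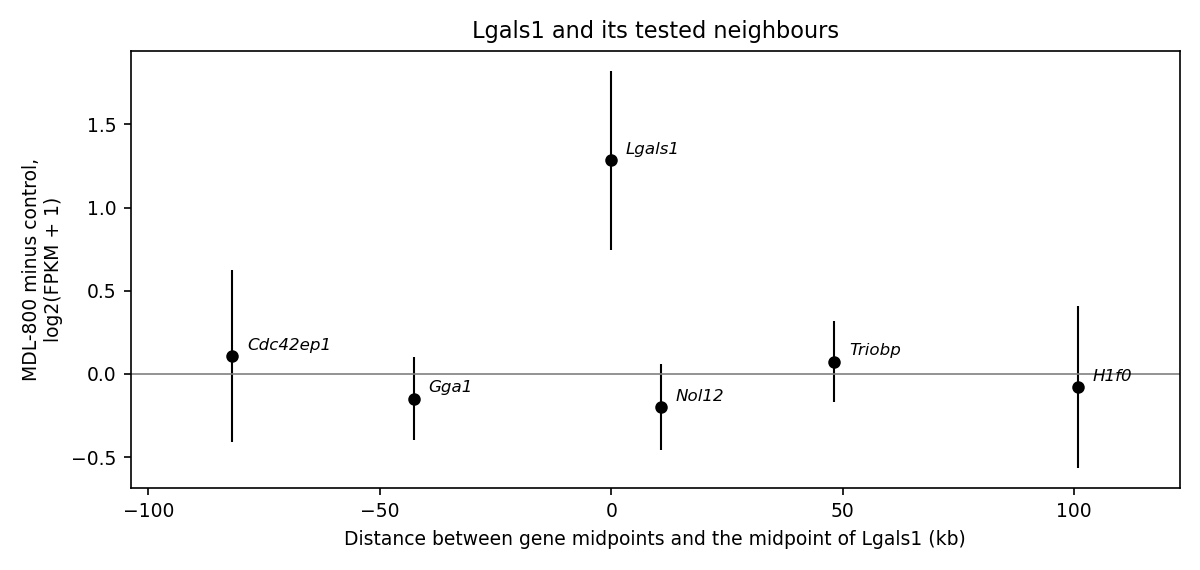
MDL-800 minus control difference in log2(FPKM + 1), with 95% limma intervals, of Lgals1 and the 5 tested protein-coding genes around it, by distance between gene midpoints (kb). Lgals1 is at 1.28, and the 5 neighbours lie between -0.20 and 0.11.

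Other family genes were near or under the detection limit, with 1 exception. Lgalsl, which encodes a galectin-related protein without sugar-binding activity, was at 11.8, 7.29 and 11.7 FPKM in MDL-800 1, 2 and 3 and 6.03, 11.1, 14.4 and 8.67 FPKM in control 1 to 4. Its groups overlapped, and its 2 lowest values were those of the libraries with Y-linked reads (difference -0.71, limma adjusted p = 0.104). Lgals2 held 0 to 5 reads per library. Lgals12 held at most 2 reads, and Lgals7 and Grifin had reads only in control 2, 4 and 3 of them.

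The galectin pathway was described by 3 lists of genes, in none of which a gene passed limma, and over all 11394 tested genes the median difference was 0.02, with 54.2% above 0. Enzymes that build the branched glycans bound by galectins were 6 above and 2 below 0 (median 0.05, or -0.020 without control 2). St6gal1, whose sialic acid caps block galectin-1 binding, was at 45.0 ± 12.3 against 32.5 ± 4.30 FPKM (difference 0.43), and B4galt1, which adds the galactose that galectins bind, at 12.1 ± 1.93 against 16.3 ± 3.49 FPKM (difference -0.39; SD, n = 3 and 4). Mgat5, the branching enzyme of high-affinity ligands, was at 1.30 ± 0.145 against 1.86 ± 0.553 FPKM (difference -0.30).

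Counter-receptors were 6 above and 10 below 0 (median -0.08, or 0.05 without MDL-800 2 and 0.087 without control 2). The largest differences were those of leukocyte glycoproteins, Spn (-0.85), Itgam (-0.79), Ptprc (-0.46) and Cd44 (-0.36). Control 2 was the highest library for all 4: Itgam was at 10.4 FPKM there and at most 1.01 FPKM in the other controls, Spn at 8.46 and at most 2.74 FPKM, Ptprc at 7.35 and at most 2.48 FPKM, and Cd44 at 12.4 and at most 4.63 FPKM. The other 3 controls overlapped the MDL-800 libraries for each of the 4. The 2 most abundant, named after their values were seen, were P4hb, a disulfide isomerase bound by galectin-9, and Lamp1, a lysosomal glycoprotein, with differences of -0.05 and 0.15. Genes that act with galectins at damaged lysosomes were 6 above and 2 below 0 (median 0.13, or 0.039 without control 2 and 0.22 without control 1). Rragc, a GTPase that recruits mTORC1 to lysosomes, was at 15.4 to 15.9 FPKM in MDL-800 and 11.7 to 14.1 FPKM in control (difference 0.26, limma adjusted p = 0.950). It was the one tested gene of the 3 lists whose groups did not overlap, against 6.45% of all tested genes.

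The genes whose pattern over the 7 libraries was most like that of Lgals1 were taken by Pearson r on the log2(FPKM + 1) scale. They were Gm45133 (r = 0.990), Atp7b (0.988), Slc4a2 (0.987), Pgrmc2 (0.981), Chmp2b (0.978) and Dsp (0.975), with Spearman's rho from 0.929 to 1. The groups did not overlap for any of the 6, against 6.45% of all tested genes, which follows largely from choosing them for likeness to Lgals1. In all, 114 genes had an r over 0.9. Deviations from the group means alone gave r from 0.843 (Dsp) to 0.989 (Gm45133), and r without the 2 libraries farthest from the Lgals1 median was 0.949 to 0.990. All values share the same 7 libraries and were selected from 11394 genes, so r is a measure of likeness only. Atp7b, which encodes a copper-exporting ATPase, was at 6.98 ± 0.559 against 4.79 ± 0.550 FPKM, and Slc4a2, an anion exchanger gene, at 3.82 ± 0.185 against 3.26 ± 0.164 FPKM (SD, n = 3 and 4). Their differences of 0.47 and 0.18 were smaller than that of Lgals1.

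Among the 6 genes themselves, patterns were mixed. Lgals1 was most like Lgals8 (r = 0.749, rho 0.679) and least like Lgals3 (r = -0.353, rho -0.357), over 7 libraries that share their depth and scaling. Lgals3 and Lgals3bp were alike (r = 0.783, rho 0.679), while Lgals3 and Lgals8 ran opposite (r = -0.823, rho -0.750). Control 1 and MDL-800 2, the libraries with Y-linked reads, were lowest in Lgals3. MDL-800 2 was also lowest in Lgals3bp and highest in Lgals8, so the split by Y-linked reads enters these r values.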

How the data were processed

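RNA was measured in 3 MDL-800 and 4 control liver libraries. The FPKM values were deposited by the authors with each gene's position and length. SMARTer amplification of cDNA from lysed liver preceded shearing and NEBNext library preparation, per the labels' protocols. Cufflinks 2.2.1, Bowtie2 2.1.0, TopHat2 2.0.14 and build mm9 are named, per the submitters' processing notes, while 53842 of 54495 shared gene identifiers have the chromosome and start of GENCODE M21, so coordinates are given as GRCm38. Settings and annotation were steps not given in the sources used here.

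Reads were recovered from FPKM and gene length, since values fell on multiples of a fixed step in each library (100% of nonzero values whole within 0.01). Tests used limma 3.58.1 in R 4.3.3 (trend, two-sided, Benjamini-Hochberg over all tested genes) on log2(FPKM + 1), for a mean of at least 1 FPKM. The edgeR test listed as an alternative was not run because the deposited unit is FPKM, and limma voom on recovered reads, chosen after seeing the data, took its place.

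Members and lists were chosen with earlier results of these data known. Named genes were the members, other Lgals genes and Grifin, listed genes of largest difference, protein-coding genes within 100 kb of Lgals1 and the 6 genes most like it. The fits were tested on simulated data, with a spread drawn independently for each gene. That spread was taken within the treatment groups, so it includes the split by Y-linked reads and may misstate the rates for that contrast. At an adjusted limma p under 0.05, 46% of 2-fold and 7.29% of 1.5-fold changes were called between MDL-800 and control. For Y-linked reads these were 27.5% and 0.912%. Unchanged genes were called in 0.0373% and 0.0461%. A gene that did not pass can thus still differ 2-fold. Alternatives covered pseudocount, filter, scaling, the Y term, the replicate block and each library left out.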

Additional observations from a re-analysis of the deposited data

Results flagged for a closer look

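Among 74 gene values examined in the 4 controls, 10 had 1 library whose gap to the nearest other filled more of the whole range than Dixon's 95% limit; chance gives such a gap in about 1 of 20 groups. None was a galectin or Lgals3bp. Control 2 was the high library for 8 of them: the haemoglobin genes Hba-a1 (gap 0.973), Hbb-bs (0.979) and Hbb-bt (0.901), the neutrophil genes Ngp (0.921), Retnlg (0.942), S100a8 (0.949) and S100a9 (0.875), and the integrin gene Itgam (0.921). S100a8 was at 111.5 FPKM there and at most 14.9 FPKM in the other controls. Control 2 also held the highest Lgals3 value of the 7 libraries. Control 4 was the low library for Clec4g (0.908), a sinusoidal endothelial lectin gene, at 2.40 FPKM against 11.7 to 12.6 FPKM, and held the lowest Lgals1 value. Control 1 was the high library for Fabp2 (0.914), at 121.3 FPKM against 45.9 to 52.3 FPKM.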

How the results depend on the processing

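The MDL-800 minus control difference of Lgals1 ran from 1.13 to 1.42 over 17 alternatives, and its adjusted p was at least 0.426 (limma). Its groups did not overlap, so leaving out libraries could not turn its sign. The filters do not enter its difference, so its constant sign is no support. The replicate block, which uses the numbers of the labels, gave 1.13, the same as leaving out control 4, the only library numbered 4. Same-numbered libraries did not deviate together over all tested genes (correlations -0.587, -0.553 and 0.057). The split of control 1 and MDL-800 2 from the rest enters these correlations, so they cannot decide whether the numbers mark pairs. Under the replicate block 192 genes had an unadjusted p under 0.05, against 553; the count was 1083 without a filter, 305 at a mean of at least 5 FPKM, and in the 7 fits with 1 library fewer the lowest was 274, without MDL-800 3, and the highest 948, without control 1. Higher genes among them were 66.5%, and 81.2% with summed reads as the denominator or 84.4% with voom (631 of 748), but 54.2% without MDL-800 2 and 48.4% (248 of 512) without control 2. Lgals3 turned to 0.24 without MDL-800 2 (lowest -1.08 without MDL-800 3), and Lgals4 to -0.036 without control 3 (highest 0.56). For Y-linked reads, Lgals1 turned to -0.13 with quantile normalization, -0.15 with summed reads and -0.18 with voom, and ran from -0.19 to 0.24 without single libraries; Lgals3 ran from -2.48 to -1.95, with an adjusted p of 0.00728 without control 3 and 0.611 without control 1. Lgals1 minus the other galectins was 0.99 to 1.52 without single libraries. The glycan enzyme median turned to -0.020 without control 2 (highest 0.15), and the counter-receptor median to 0.05 without MDL-800 2 and 0.087 without control 2 (lowest -0.16). The causes were not tested. Lgals4 has no value at a mean of at least 5 FPKM. Depth limits Lgals4 and Lgals3 most, with as few as 48 and 63 reads.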
